A study of Capra hircus with 2 samples.

Results

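The most abundant small RNA tags of the dairy goat mammary gland that did not begin like any miRNA listed in the study formed 135 families, each named here by its rank in reads. A tag is a distinct read sequence with its read count. Tags whose first 18 bases were those of any of the 346 listed conserved miRNAs were set aside, the remaining tags were grouped by their first 18 bases, and groups with at least 20000 reads over both libraries were kept. These 135 families were taken from 1069574 groups outside the listed miRNAs. The summed read count chose the families, so their abundance and the ratio between the stages are descriptions and carry no test. The smallest families had 20183, 20166 and 20146 reads, and the largest groups that were left out had 19879, 19745 and 19660.

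The reads came from Xinong Saanen dairy goats (Capra hircus), in the form of a dry period library and a peak lactation library, and for each of them mammary glands of 3 goats had been pooled. The labels name no treatment, genotype or age, while the paper states a single age for the goats sampled. The label of the dry period sample says 75 days after lambing and that of the other sample 320 days. The paper has them in the opposite order, and the stages were therefore taken from the sample titles. With 1 library per stage no difference between the stages could be set against a spread between goats, and the 95% intervals below cover the counting of reads only. The files hold no molecular identifiers, so copies made by PCR could not be told from independent molecules.

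The ribosome is built on 4 rRNAs. In mammals the 18S, 5.8S and 28S rRNAs are cut from a single long precursor by removal of spacers, while the 5S rRNA is transcribed separately. A mature tRNA ends in the bases CCA, which are added after transcription, and its T loop often carries a methylated adenosine at which reverse transcriptase is known to stop or to insert other bases. A miRNA is cut from a hairpin by 2 enzymes, and because its bases 2 to 8, the seed, pair with target mRNAs, a 5′ end moved by 1 nt gives another seed. Reads of rRNA and tRNA in a small RNA library can be cleavage products of the cell or of RNA handling, and the read counts do not separate these.

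The parent RNAs were named from the sequences themselves. Families that overlapped a listed or candidate miRNA were found by comparison with the study's sequence lists. No rRNA or tRNA reference was used here, so the names of the rRNAs and tRNAs rest on textbook knowledge of these highly conserved sequences, were given after the sequences had been seen, and were not checked by alignment. By these names 115 families belonged to rRNA (80 to 28S, 23 to 18S, 11 to 5.8S and 1 to 5S), 14 belonged to tRNA, 4 were shifted forms of listed miRNAs, 1 was a candidate miRNA of the study and 1 was not placed.

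Families were joined to a chain when they shared at least 12 bases, without a mismatch, at a shift of up to 6 nt. The 135 families made 45 chains, of which 22 held a single family and 23 held 113 families.

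The first tags are shown because 5′ starts varied while the 3′ end lay at or beside that of a mature rRNA. The exact last base of 5.8S rRNA was not checked against a reference. The first 4 were recognised as the 3′ end of 5.8S rRNA and the last 3 as the 3′ end of 18S rRNA, whose last bases are closely conserved. Capitals mark the stretch shared within each chain.
family 54 (5.8S): ggggctacGCCTGTCTGAGCGTCGCT
family 49 (5.8S): tacGCCTGTCTGAGCGTCGCT
family 24 (5.8S): cGCCTGTCTGAGCGTCGCT
family 84 (5.8S): GCCTGTCTGAGCGTCGCT
family 60 (18S): gtAGGTGAACCTGCGGAAGGATCATTA
family 37 (18S): tAGGTGAACCTGCGGAAGGATCATTA
family 73 (18S): AGGTGAACCTGCGGAAGGATCATTA

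Further families of each rRNA are shown for identification, with the first 18 bases that define the family in capitals. Family 1 was recognised as the 5′ end of 28S rRNA, family 10 lay inside 18S rRNA, family 16 lay inside 5.8S rRNA, family 44 starts beside the 5′ end of 5.8S rRNA and family 132 lay inside 5S rRNA.
family 1: CGCGACCTCAGATCAGACg
family 10: GCAGTTAAAAAGCTCGTAgttggatc
family 16: TGAATTGCAGGACACATTgatca
family 44: GACTCTTAGCGGTGGATCactcgg
family 132: GTCTGATCTCGGAAGCTAag

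The most abundant tags of the 11 tRNA families that ended in CCA are shown with the 19th base from the 3′ end in capitals, since that base differed between otherwise identical reads. Tags of 18 nt have no base at that place and are in lower case throughout.
family 98 (tRNA-Val): ttcgTaaccgggcggaaacacca
family 135 (tRNA-Val): tcgAaaccgggcggaaacacca
family 116 (tRNA-Val): cgTaaccgggcggaaacacca
family 23 (tRNA-Val): aaccgggcggaaacacca
family 35 (tRNA-Tyr): tcgTttccggctcgaaggacca
family 86 (tRNA-Tyr): cgTttccggctcgaaggacca
family 131 (tRNA-Trp): gttcaGgtcacgtcggggtcacca
family 68 (tRNA-Trp): aGgtcacgtcggggtcacca
family 75 (tRNA-Trp): gtcacgtcggggtcacca
family 55 (tRNA-Trp): atcacgtcggggtcacca
family 122 (tRNA-Lys): cagggttcaGgtccctgttcgggcgcca

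The miRNA-like families are shown beside the listed miRNAs they overlapped, because they differ from them in the 5′ start. Capitals mark the seed, bases 2 to 8.
family 11: tACCACAGggtagaaccacgga
listed miR-140: aCCACAGGgtagaaccacgga
family 25: gTACAGTActgtgataactga
listed miR-101: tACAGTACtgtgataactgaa
family 41: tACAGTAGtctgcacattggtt
listed miR-199a-3p: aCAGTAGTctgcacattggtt
family 59: gAAAAGTTcgttcgggttttt
listed miR-2284x: tGAAAAGTtcgttcgggttttt
listed miR-2284h: aAAAGTTCgttcgggttt
family 108 (candidate novel_mir_19): aGATATTGcacggttgatctct

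The dry period library had 14851375 clean reads and the peak lactation library 15712891. Tags of listed miRNAs took 61.15% of the dry period reads and 14.42% of the peak lactation reads, which left 38.85% and 85.58% for all other tags. A value per clean read therefore moves with the share of the miRNAs, and each stage ratio is given as reads per 1000000 clean reads (RPM) of peak lactation over the dry period, followed where it matters by the same ratio per read outside the listed miRNAs. The second scale lowers each log2 ratio by 1.14.

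The 135 families held 1884642 dry period reads and 4859083 peak lactation reads. These were 12.69% (Wilson 95% interval 12.67 to 12.71) and 30.92% (30.90 to 30.95) of clean reads, a pooled ratio of 2.44. As shares of the reads outside the listed miRNAs they were 32.66% and 36.14%, a ratio of 1.11, so most of the difference per clean read was shared with all other tags outside the miRNAs. Family 1 alone held 18.34% of the reads of the families, and the 10 largest held 32.84%. The median family had 31794 reads.

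**Figure D1:**
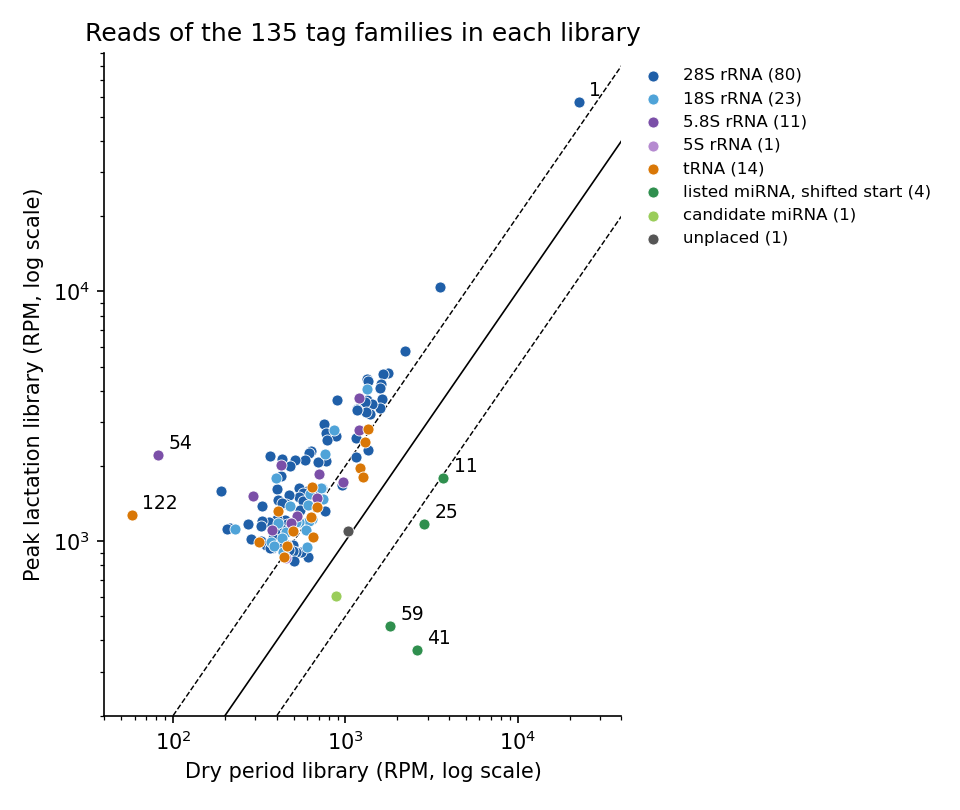
RPM of each of the 135 families in the dry period library (x axis) and the peak lactation library (y axis), both on log scales, with 1 point per family coloured by parent RNA. The solid line marks equal values and the dashed lines a 2-fold difference. Most points lie above the upper dashed line, families 54 and 122 lie far above it, and families 11, 25, 41 and 59, the shifted forms of listed miRNAs, lie below the lower one.

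Per clean read, 105 of the 135 families (77.8%) were at least 2-fold higher at peak lactation. The background was 66.2%, the share of all 8434 groups outside the listed miRNAs with at least 100 reads that were also at least 2-fold higher. Only 4 families (2.96%) were at least 2-fold lower, beside 6.92% of those groups. The median ratio of the families was 2.59, or 1.37 on the log2 scale, beside a median log2 ratio of 1.29 over the groups. Per read outside the listed miRNAs the counts were 11 families higher (8.15%, background 18.5%) and 6 lower (4.44%, background 14.4%), with a median log2 ratio of 0.23 beside 0.16 over the groups. Per clean read 130 families were above an equal level (background 87.0%), and on the second scale 97 were above and 38 below it (background 58.8% above). A smaller share of families than of groups thus stood past 2-fold in either direction on that scale. The groups reach down to 100 reads and the families only to 20000, and counting error is larger at few reads. The 2 shares are therefore not compared at equal depth. In pooled tissue RNA, a change in the number of cells of a type and a change in the RNA of each cell cannot be told apart.

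**Figure D2:**
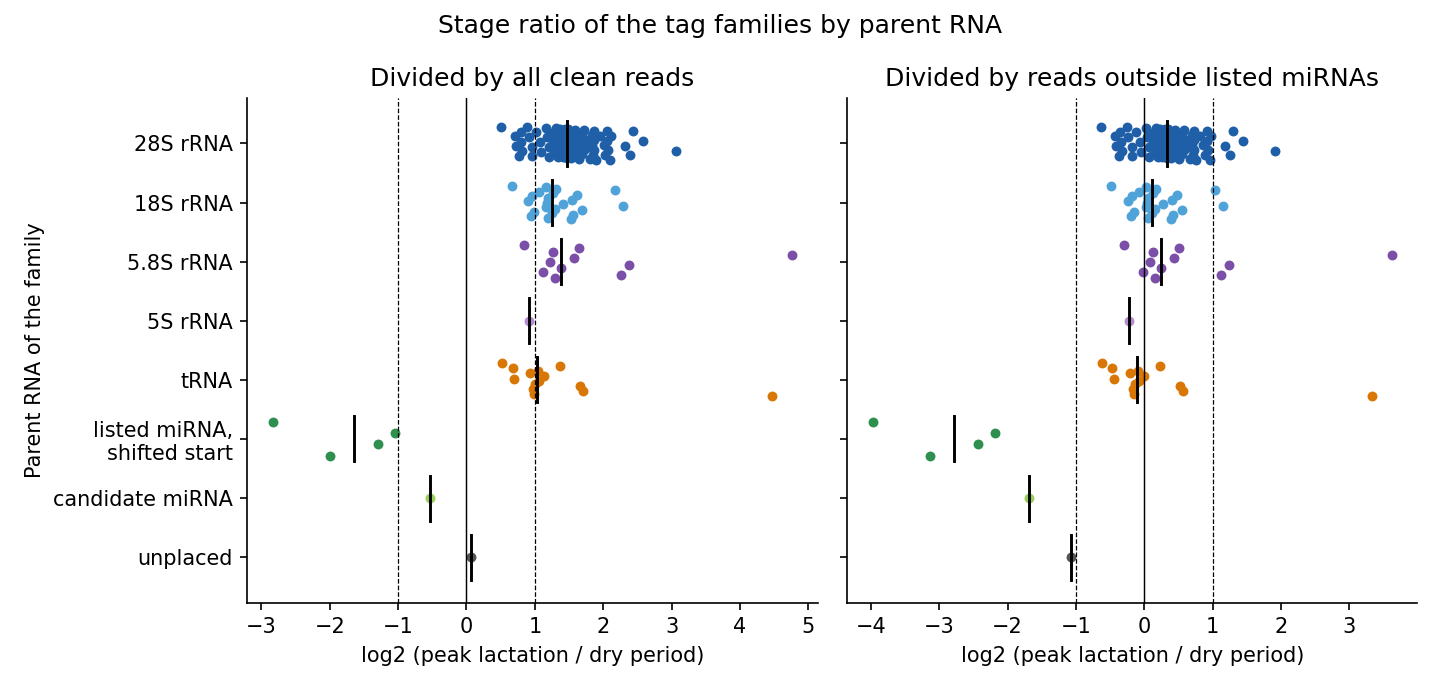
Log2 ratio of peak lactation over the dry period for each family (points), by parent RNA, per clean read (left) and per read outside the listed miRNAs (right). Vertical bars mark the median of a group of families, the solid line an equal level and the dashed lines 2-fold. All rRNA and tRNA families lie above 0 on the left, and on the right they lie on both sides of 0 while the shifted miRNA families stay below it.

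The rRNA families made up 10.41% of the dry period clean reads and 28.29% of those of peak lactation, a ratio of 2.72 per clean read and 1.23 per read outside the listed miRNAs. All 115 were higher at peak lactation per clean read, with ratios from 1.42 to 27.02, and 92 were higher and 23 lower on the other scale. By pooled reads the order of the rRNAs was 5.8S with a ratio of 3.02, 28S with 2.73, 18S with 2.53 and 5S with 1.89. By the median of their families 28S came first with 2.78, before 5.8S with 2.62, 18S with 2.38 and 5S with 1.89. The pooled 5.8S value includes family 54, with 1218 and 34819 reads. Whether these ratios differ beyond the variation between goats could not be tested.

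The 28S rRNA, the RNA that holds the peptidyl transferase centre of the large subunit, gave 80 families in 20 chains. They had 1236457 dry period reads and 3568100 peak lactation reads, or 8.33% and 22.7% of clean reads. Family 1 was the largest of all, with 336918 and 900141 reads (22686 and 57287 RPM), a ratio of 2.53 (2.51 to 2.54). It begins at the 5′ end of 28S rRNA, and its reads were mostly 19, 20 and 21 nt long, with 33.55% and 34.46% at 19 nt. Family 27 starts 1 nt earlier and had a ratio of 2.24. Family 1 held 95.52% of the reads of their chain, so nearly all reads had the same start, and its 3′ end was spread over 7 lengths that each held at least 1% of its reads.

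A chain of 7 families inside 28S rRNA had several starts. They covered 7 nt. Over both libraries the most frequent 3′ end was nt 26, counted from the first start, in 5 of the 7 families. Families 13 and 45 ended most often at nt 25. These 2 ends together held 41.95% of the chain's reads over both libraries, less than the 63.13% that the leading 2 ends held in the chain of family 1. Family 3 had 32965 and 90234 reads (ratio 2.59, 2.56 to 2.62), family 4 had 26318 and 73733 (2.65) and family 6 had 23788 and 66968 (2.66). The members that start first had fewer reads and higher ratios, with 4193 and 15973 reads in family 134 (3.60), 7125 and 31288 in family 50 (4.15) and 7582 and 33262 in family 45 (4.15).

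**Figure D3:**
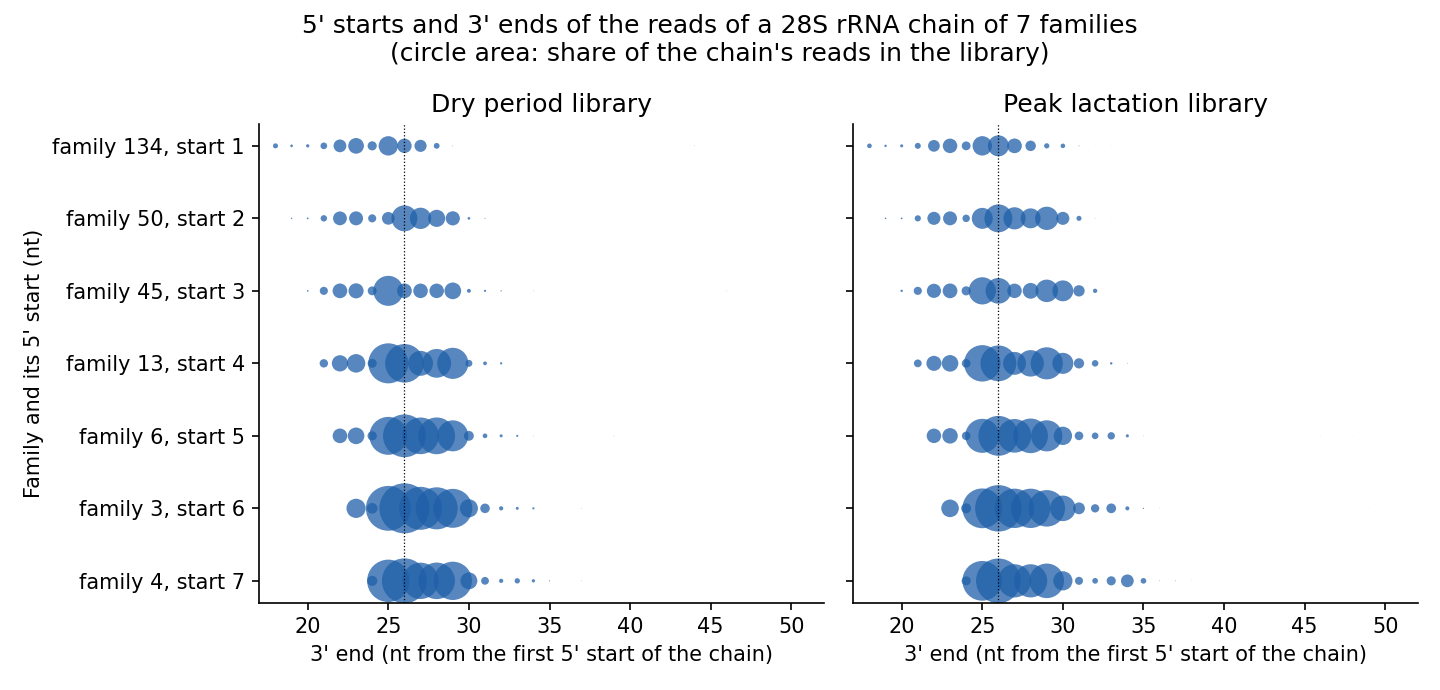
Reads of the chain of 7 families of 28S rRNA by 5′ start (rows, 1 family each) and 3′ end (x axis, nt from the first start of the chain), in the dry period library (left) and the peak lactation library (right). Circle area is the share of the chain's reads in that library, and the dotted line marks nt 26, the modal end of 5 of the 7 families over both libraries.

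Modal 3′ ends were taken over both libraries. At least 2 families, not always with neighbouring starts, had the same modal end in 20 of the 23 chains with 2 or more families. Of their 113 families, 91 had a modal end that another family of the chain also had. A chain of 6 families led by family 22 (17446 and 52714 reads) ended at nt 27 in 5 of them, and a chain of 9 led by family 20 ended at nt 26 in 5, with ratios from 2.72 to 5.99, the highest in its first member, family 48. The cause of the shared ends was not tested.

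The chain with the most families, 13, ran over 19 nt of starts in 28S rRNA and had a pooled ratio of 2.16, which was 0.98 per read outside the listed miRNAs. Over both libraries its families that start at nt 15 to 19 (12, 14, 46, 18 and 88) had their modal end at nt 42. Their most abundant tags had 28, 27, 26, 25 and 24 nt. In the dry period alone the modal length was 21 nt in family 12 and 24 nt in family 14. Reads of 28 and 27 nt held 3.09% and 6.93% of these families there, against 18.44% and 18.80% at peak lactation. Families 46, 18 and 88 had the same modal length in both libraries. In family 12 the 28 nt tag had 639 and 9644 reads while the whole family had 24274 and 58245 reads, a ratio of 2.27, and its mean length was 22.93 nt in the dry period and 24.58 nt at peak lactation. The longer member of a family could therefore differ between the libraries far more than the family did. When overlaps were traced through whole tags, an alternative chosen after seeing the data, this chain joined a neighbour of 5 families to a run of 18 families.

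Another chain of 5 families, 123, 70, 76, 111 and 126, ended at the same base in all 5. That end held 83.96% of its reads in the dry period against 65.47% at peak lactation, and the chain's ratio was 4.31. In family 126, the shortest, the modal 19 nt tags held 77.85% of the dry period reads and 41.48% of the peak lactation reads, and the mean length was 19.56 and 21.85 nt, so longer reads took a larger share at peak lactation. Family 83 of a further chain had the highest ratio of the 28S families, with 2816 and 24821 reads (8.33, 8.01 to 8.66), while the other 3 families of its chain of 4 had ratios down to 3.02. At the other side, family 107 had the lowest ratio of all rRNA families, 1.42, from 9045 and 13541 reads.

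The 18S rRNA, the RNA of the small subunit, gave 23 families in 7 chains, with 200068 and 535101 reads. The largest chain had 11 families over 16 nt of starts and a ratio of 2.51. Over both libraries 6 of its families ended most often at nt 25. Its leading member, family 10, had 19765 and 63918 reads (ratio 3.06, 3.01 to 3.11), most often at 26 nt. The families at the 3′ end of 18S rRNA were more uniform. In all 3 the mature end held the reads almost alone, with 98.83% of the chain's reads in the dry period against 99.16% at peak lactation.

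Within that 18S end the ratio was lower the shorter the tag. Family 60, of 27 nt, had 5908 and 28118 reads, a ratio of 4.50 (4.37 to 4.63). Family 37, of 26 nt, had 11381 and 35027 reads (2.91, 2.85 to 2.97), and family 73, of 25 nt, had 9036 and 21842 (2.29, 2.23 to 2.34). Over all reads that carried the last bases of 18S rRNA, 98.14% in the dry period against 98.15% at peak lactation ended in the final A, so the 3′ end lay at the same base in both libraries while the shares of the 5′ starts differed.

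The 5.8S rRNA, which pairs with the start of 28S rRNA in the large subunit, gave 11 families in 3 chains, with 102843 and 328461 reads. The largest, family 16, had 17745 and 58756 reads, a ratio of 3.13. At its 3′ end the 4 printed families had the same modal end, with 80.05% and 86.01% of the chain's reads. Family 54, whose tags of 26 nt are the longest, had 1218 dry period reads and 34819 peak lactation reads (82.0 and 2216 RPM), a ratio of 27.02 (25.5 to 28.6), the highest of all 135 families. Families 49, 24 and 84, with modal lengths of 21, 19 and 18 nt, had ratios of 2.62, 2.33 and 2.41. Of the reads of family 54, 57.72% in the dry period against 90.09% at peak lactation had 26 nt, and its most abundant tag had 353 and 26286 reads. Among the 4 starts at this end the high ratio was thus found in the longest form, while the shorter forms lay near the median of all families.

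Near the 3′ end of 5.8S rRNA the shares of T and A at a base also differed between the libraries. In some reads a further T followed that base. Among all reads with the stretch CTGTCTGAGCGTCGC, those that ended in a single T after it were 52.35% in the dry period library and 72.22% at peak lactation, and those that ended in TT were 18.15% and 16.57%. Reads that ended in A instead of T were 18.73% and 7.44%, and those in AT 9.33% and 2.53%. In family 84 the same change was seen as T18A, counted from 1 at the 5′ end of the family with the family's base first. The other bases at that place made 34.15% in the dry period against 11.75% at peak lactation. The shares over all reads with the stretch include the reads of family 54, which were far more numerous at peak lactation. The share at T18A does not include them, since the reads of family 54 start at another base.

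The chain at the 5′ end of 5.8S rRNA had 5 families over 8 nt of starts, and 3 of them ended most often at nt 31 over both libraries. Family 44, with 14303 and 27069 reads, had a ratio of 1.79 (1.75 to 1.82), while family 81, which starts 1 nt earlier, had 4338 and 23868 reads and a ratio of 5.20. A start moved by 1 nt at this place thus went with a far higher ratio. The only 5S rRNA family, 132, had 6732 and 13467 reads and a ratio of 1.89, which was 0.86 per read outside the listed miRNAs.

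The 14 tRNA families had 147085 and 327955 reads, a ratio of 2.11 per clean read and 0.96 per read outside the listed miRNAs, lower than that of rRNA on both scales. The 11 families that ended in CCA came from tRNA-Val, tRNA-Tyr, tRNA-Trp and tRNA-Lys and had a pooled ratio of 2.33. The largest of them, family 23 of tRNA-Val, had 19957 and 44202 reads, a ratio of 2.09. The 3 families from the 5′ part of a tRNA, family 26 (tRNA-Lys, 19425 and 39119 reads), family 36 (tRNA-Ala, 18779 and 28448) and family 92 (tRNA-Ser, 9671 and 16319), had ratios of 1.90, 1.43 and 1.60. The 3′ and 5′ parts differed in length profile as well. A single length held a median of 98.88% of the reads in the CCA families, whereas it held a median of 27.28% in the 5′ families, which spread over a median of 7 lengths. The CCA families were set apart by their common end, so a high share at a single length follows in part from that choice.

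Within the CCA families the 3′ end was fixed and the 5′ start varied. The tRNA-Val families 98, 135, 116 and 23 ended at the same base in 95.83% and 98.08% of their reads, and their ratios lay between 1.956 and 2.206. In tRNA-Tyr, family 35 of 22 nt had 17966 and 30696 reads, a ratio of 1.61 (1.58 to 1.65), and family 86, which starts 1 nt later, had 6027 and 20793 reads, a ratio of 3.26 (3.17 to 3.36). Neighbouring starts of 1 tRNA therefore did not share a ratio. The longest, family 122 of tRNA-Lys with 28 nt, had 854 and 20018 reads (57.5 and 1274 RPM) and a ratio of 22.2 (20.7 to 23.7), the second highest of all families. All reads with that tRNA-Lys end, of any length, numbered 5116 in the dry period against 86492 at peak lactation.

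The bases of the families were otherwise nearly uniform. Over the 2430 positions of the first 18 bases, the reads that differed from a family at that base alone, as a share of themselves and the family, had a median of 0.15% per family, and 19 positions had more than 3%. These lay in 14 families, of which 12 were tRNA families. In 8 of the 12 a position lay at the 19th place from the 3′ end, with tokens T5A (47.01% other bases) in family 98, T3A (48.72%) in family 116, A4T (54.31%) in family 135, T4A (18.17%) in family 35, T3A (14.76%) in family 86, G6T (29.49%) in family 131, G2T (25.48%) in family 68 and G10T (36.37%) in family 122. At the 18th place, A1G and G1A separate family 55 from family 75, and these are the ends of tRNA-Trp printed above.

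Taken over all reads with each end, the 19th base was mixed in both libraries. In tRNA-Val it was T in 49.17% of the dry period reads and 46.51% of the peak lactation reads, A in 32.26% and 36.51%, G in 15.53% and 14.22% and C in 3.04% and 2.76%. In tRNA-Tyr it was T in 84.57% and 83.09%. In tRNA-Lys it was G in 63.99% and 63.30%, and in the tRNA-Trp end of families 68, 75 and 131 it was G in 65.72% and 67.66%. At the next place, the 20th, a single base held at least 98% of the reads in these 4 ends, so the mixture was confined among these 2 places to the 19th. The tRNA-Trp end of family 55 was mixed at both places, and at the 19th it was T in 30.40% of the dry period reads and 24.48% of the peak lactation reads and A in 24.92% and 28.83%, so its leading base was T in the dry period and A at peak lactation. This base falls in the T loop, and whether a modified base lies behind the mixture was not tested.

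**Figure D4:**
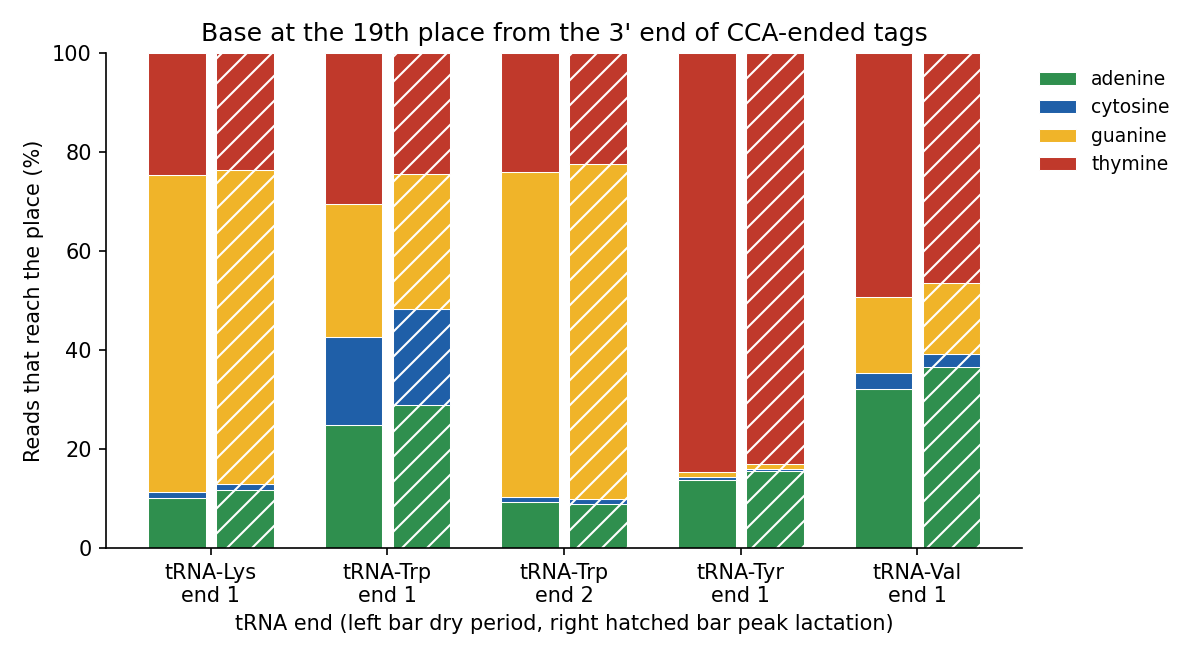
Base at the 19th place from the 3′ end among all reads that reach it, for 5 tRNA ends, in percent of reads. The left bar of each pair is the dry period library and the right hatched bar the peak lactation library, and colours mark the 4 bases. The leading base is G in tRNA-Lys and tRNA-Trp end 2 and T in tRNA-Tyr and tRNA-Val in both libraries, and in tRNA-Trp end 1 it is T in the dry period and A at peak lactation.

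A further group of tRNA reads began right after the mixed base. In families 23, 55 and 75 the 18 bases that define the family already end in CCA, so any read that stops there has 18 nt. This length held 92.88%, 99.79% and 99.82% of their dry period reads. In the dry period 24.80% of all reads with the tRNA-Val end had 18 nt. The share was 33.96% for the tRNA-Trp end of family 55 and 16.61% for that of family 75. It was 0.45% for tRNA-Lys and 3.11% for tRNA-Tyr. Tags under 18 nt had been removed by the authors, so shorter forms of these ends are not counted.

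The 4 families that overlapped listed miRNAs had 162961 and 59326 reads, a ratio of 0.34, and were the only ones at least 2-fold lower at peak lactation per clean read. Family 11 starts 1 nt before the listed miR-140, a miRNA known from cartilage and other connective tissue, and had 55017 and 28126 reads (ratio 0.48, 0.48 to 0.49). The tags counted for the listed miR-140 had 81819 and 38123 reads, a ratio of 0.44, and family 11 made 40.21% and 42.45% of the reads of both. The proportions of the 2 starts thus differed little between the libraries.

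Family 25 starts 1 nt before the listed miR-101 and had 42533 and 18314 reads, a ratio of 0.41, beside 58219 and 31101 reads and a ratio of 0.50 for miR-101 itself. Its share of both was 42.22% and 37.06%. Family 41 starts 1 nt before miR-199a-3p, a miRNA known from stromal cells, and had the lowest ratio of all families, 0.14 (0.14 to 0.15), from 38408 and 5732 reads. The listed miR-199a-3p had a ratio of 0.13 and family 41 made 20.61% and 22.12% of both. Each shifted form thus lay below an equal level like its listed miRNA, while every rRNA and tRNA family lay above it per clean read.

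Family 59, with 27003 and 7154 reads and a ratio of 0.25, starts 1 nt after miR-2284x and 1 nt before miR-2284h, members of a large miRNA family of ruminants. The listed miR-2284x had 37747 and 11002 reads, a ratio of 0.28, and miR-2284h had 1319 and 287. Family 59 was also 1 base away from miR-2284j (A14G), miR-2284k (G11T) and miR-2284m (T9C), where the listed base comes first and the position is counted from the 5′ end, but these had 14, 15 and 16 reads in the dry period. All 3 differences lie outside the seed, so family 59 has the seed of these members and not that of miR-2284x. A candidate miRNA of the study, novel_mir_17, lay inside tags of family 59.

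Family 108 begins like the candidate novel_mir_19 and had 13036 and 9484 reads, a ratio of 0.69. Its reads peaked at 22 nt, with 46.43% and 48.72%. Family 66, the only one left unplaced, had 15460 and 17189 reads and a ratio of 1.05, which was 0.48 per read outside the listed miRNAs. It is shown here, in lower case after its first 18 bases, since 74.60% of its dry period reads and 79.64% of its peak lactation reads had 22 nt, while the modal length of the median rRNA family held 24.96% of its reads over both libraries.
family 66: GAAGCGGTTGACTTTACTcttt

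Read length moved with the stage ratio. In the rRNA families the ratio stayed between 2.29 and 2.56 from 18 to 24 nt and was 2.89 at 25 nt, 3.82 at 26 nt, 5.14 at 27 nt, 10.5 at 28 nt and 19.02 at 29 nt. Reads of at least 27 nt made 3.52% of the reads of all families in the dry period against 10.26% at peak lactation. The same order was seen in other reads. In the tags outside both the families and the listed miRNAs the ratio was 1.396 at 22 nt, 3.81 at 26 nt and 22.5 at 29 nt, and in the tags of listed miRNAs it was 0.21 at 22 nt and 1.53 at 28 nt. A difference in the lengths that entered the libraries cannot be told apart from a difference between the stages.

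**Figure D5:**
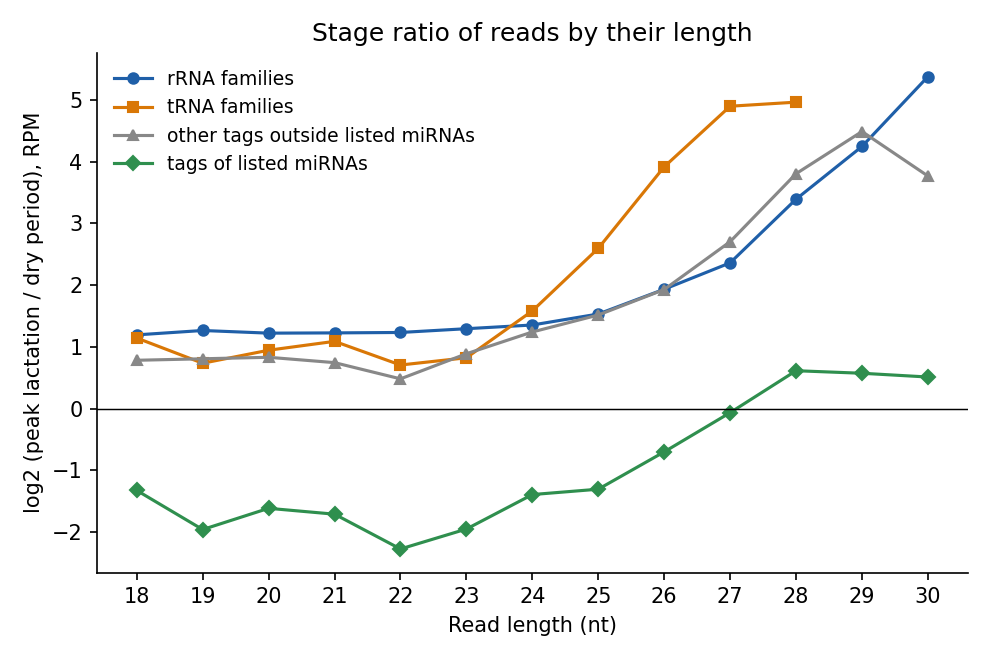
Log2 ratio of peak lactation over the dry period, per clean read, of the reads of each length from 18 to 30 nt, for the rRNA families, the tRNA families, all other tags outside the listed miRNAs and the tags of listed miRNAs. The line at 0 marks an equal level. All 4 curves are higher at 28 nt than at 22 nt, the curve of the listed miRNAs lies below the other 3 throughout, and the tRNA curve stops at 28 nt because lengths with under 100 reads are not drawn.

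The highest ratios were also set beside those of tags of the same length. Family 54, mostly of 26 nt, had a ratio of 27.02 where all rRNA families had 3.82 and the other tags 3.81 at that length. Family 122, mostly of 28 nt, had 22.2 where the rRNA families had 10.5 and the interval of the other tags ran from 13.8 to 14.2. Family 37 of 26 nt, with 2.91, and family 10 of 26 nt, with 3.06, lay below the value of their length. Family 83 of 26 nt, with 8.33, lay above it, so a long modal length did not by itself go with a high ratio. The family ratios cover reads of all lengths, and 26 nt held 99.00% of family 37, 36.43% of family 10 and 25.21% of family 83. The rRNA value at 26 nt includes the reads of family 54.

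Between families, mean length over both libraries and the log2 ratio went together, with a Spearman rho of 0.50 and a Pearson r of 0.43 over the 135 families, and 0.46 and 0.47 over the 115 rRNA families. The GC content of the first 18 bases gave a rho of 0.41 and an r of 0.39. These are descriptions without a test, since all families come from the same 2 libraries, share their depth and overlap within chains. Mean length was greater at peak lactation in 123 of the 135 families, with a median difference of 0.37 nt, and in 112 of the 115 rRNA families. The same count was not made over all groups. A shift to longer reads was not particular to the families. In the other tags outside the listed miRNAs, reads of at least 27 nt made 2.84% in the dry period against 11.71% at peak lactation. The modal length was the same in both libraries in 115 families, so the shift within the families lay mostly in the spread of lengths. In the median family the modal length held 27.61% of the reads and 9 lengths held at least 1% each, and 15 families, 11 of them CCA-ended tRNA, had at least 90% at 1 length.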

How the data were processed

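The authors sequenced small RNA of 2 pooled mammary gland samples, used the CASAVA software, removed low-quality reads, reads without an adaptor or insert, poly(A) reads and reads under 18 nt, collapsed identical reads and deposited the clean read count of each tag of 18 to 44 nt, without normalization or alignment. Versions of their tools are not given in the sources used here.

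Tags were grouped by their first 18 bases as described above and counts were expressed as RPM. A tag line with an unread base occurred 1 time. Intervals of shares and of ratios are Wilson 95% intervals of the reads. The smallest abundance shown by the depth, 3 reads, was 0.20 RPM in the dry period and 0.19 RPM at peak lactation. No test was run, because there was 1 library per stage. Families named were the 10 with most reads, the 5 with the largest ratio in each direction, the largest of each parent and members of chains of 3 or more, the last given partly as ranges, and some of them are not reported here. The families and lists were chosen with earlier results of these data known. Alternatives changed the denominator, the read minimum, the bases used for grouping, the tags counted and the overlap. The ratio computation was tested on simulated data, drawn from a tag profile common to both libraries with known changes in some families. This checks the arithmetic and not the choice of denominator. The software was R 4.3.3 with edgeR 4.0.16 (TMM factors) and DESeq2 1.42.0 (size factors), and Python 3.11.15 with scipy 1.17.1, numpy 2.4.6 and matplotlib 3.10.9. Factors were computed over groups with at least 10 reads.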

Additional observations from a re-analysis of the deposited data

How the results depend on the processing

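The median log2 ratio of the families, 1.37 per clean read, was 0.23 per read outside the listed miRNAs, 0.18 with TMM factors and 0.19 with DESeq2 size factors, and families at least 2-fold higher fell from 105 to 11, 10 and 10. These scalings put 38, 45 and 44 families below an equal level instead of 5. With the most abundant tag alone the median was 1.32. A minimum of 10000 reads gave 305 families with 244 higher, and 50000 gave 34 with 29 higher and 2 lower. The share of clean reads was then 16.95% and 7.16% in the dry period and 41.69% and 17.43% at peak lactation. Grouping by 16 bases gave 12.89% and 31.31%, dropping tags 1 base from a listed miRNA 12.51% and 30.88%, and reads outside the listed miRNAs as denominator 32.66% and 36.14%. Counting unique tags once moved the median modal length from 22 to 25 nt. An overlap of 14 bases gave 49 chains, 1 mismatch 44, and whole tags 43. The ratio was recomputed for 20 families chosen by abundance or by an extreme ratio. With the most abundant tag alone 18 of them moved and none changed direction. The other scalings shift every log2 ratio by the same amount, -1.14, -1.19 and -1.18, so all 20 moved with each of them. None of the 20 lay close enough above an equal level to change direction under such a shift, so these families say nothing about direction under another scaling. No paired analysis was possible because each stage had 1 library, and no library could be left out for the same reason. The parents of rRNA and tRNA families rest on recognition by eye, and counts cover neither goats nor library preparation.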
